A study of Mus musculus with 816 samples.

Results

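The ER stress and amino acid response was followed through 40 named genes, chosen as a list from the unfolded protein response and from the targets of the transcription factor ATF4. They make up 40 of the 45581 genes listed for cultured mouse microglia and 40 of the 29858 genes listed for microglia from mice. By role it holds 8 sensors and transcription factors, 14 ER chaperones and folding enzymes, 4 genes of ER-associated degradation, 6 stress outputs and feedback genes and 8 genes of amino acid supply.

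Microglia are the resident macrophages of the brain, and they secrete cytokines and growth factors that must first fold in the endoplasmic reticulum (ER). Unfolded protein in the ER is sensed by IRE1 (Ern1), PERK (Eif2ak3) and ATF6, which raise chaperones and degradation genes through XBP1 and cleaved ATF6 and, through PERK and the phosphorylation of eIF2α, translation of ATF4. Other kinases of eIF2α answer amino acid shortage, viral RNA or other stress, so that ATF4 and its targets in amino acid supply can be switched on without unfolded protein.

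The series measured 3′-end RNA of 784 cultures and of 32 mice, in CPM (counts per M mapped reads, M being the metric mega). Cultures were neonatal mouse microglia, treated for 4, 24 or 72 h, with 40 untreated cultures at 24 h and 25 at 72 h and no untreated cultures at 4 h. The 4 and 24 h conditions were set against untreated cultures at 24 h and those at 72 h against untreated cultures at 72 h, so that these comparisons share their controls. For the 4 h conditions, the hour of harvest and the agent cannot be told apart from that comparison alone. Doses are given as labelled. LPS, the bacterial ligand of TLR4, was used at 0.0001 ug/ul (LPS_hi: 7 cultures at 4 h, 18 at 24 h, 13 at 72 h) and 0.00001 ug/ul (LPS_lo: 7 at 24 h, 11 at 72 h). Pam3Cys (P3C), a ligand of TLR2, was at 0.001 ug/ul, Poly(I:C) (IC), a mimic of viral RNA, at 0.2 ug/ul, IFNg and IFNb at 0.0001 ug/ul, IL4 at 0.00005 ug/ul and the growth factor GM-CSF (GMCSF) at 0.000005 ug/ul. The mix TNFa + P3C carries a single labelled dose of 0.000004 ug/ul and the mix IL4 + IL10 + IL13 one of 0.00005 ug/ul. Rapamycin, an inhibitor of the kinase mTOR, was at 5 nM, 1-methyl-4-phenylpyridinium (MPP), an inhibitor of mitochondrial complex I, at 100 uM, and palmitic (PA), oleic (OA) and linoleic acid (LiA) at 150 uM. In mice, C57BL/6 females of 2 months received 2 mg/kg LPS or PBS and were taken after 4 h (4 and 4 mice), and C57BL/6 males were compared at 22 months (13) and 2 months (11). Microglia of mice were taken from whole brain by CD11b, which peripheral myeloid cells also carry. In these bulk samples fewer cells of a type and less RNA per cell cannot be told apart.

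Some promoters of the members, 16 of the 36 with a window, hold letters through which these pathways are known to act. A few are shown so that the letters can be seen beside genes named below. RefSeq windows of 250 bases before to 50 after a gene start (GRCm38.p6) were found for 36 of 40 members, both strands were searched, and capitals mark the match. CCAAT and CCACG with 9 bases between them, the ER stress response element, stood in 22.2% of the members (Hspa5, Hsp90b1, Calr, Canx, Pdia6, Dnajc3, Creld2 and Syvn1) against 0.137% of all 27025 genes with a window. ATTGG and CCACG with 1 base between them stood in 5.56% of the members (Dnajb11 and Herpud1) against 0.0444% of all. TGATGNAA, a common form of the C/EBP-ATF response element, stood in 19.4% (Herpud1, Trib3, Chac1, Nupr1, Vldlr, Asns and Aars) against 4.51%, and TGACGTGG in 0 members against 0.714%. Hspa5 lies at chr2:34772020-34772048 on the plus strand here, Calr at chr8:84847055-84847113 on the minus strand, Herpud1 at chr8:94386297-94386407 on the plus strand with both kinds of match, Asns at chr6:7693220-7693237 on the minus strand and Chac1 at chr2:119351029-119351076 on the plus strand.
Hspa5: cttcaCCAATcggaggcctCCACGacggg
Calr: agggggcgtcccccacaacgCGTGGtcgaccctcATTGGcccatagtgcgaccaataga
Herpud1: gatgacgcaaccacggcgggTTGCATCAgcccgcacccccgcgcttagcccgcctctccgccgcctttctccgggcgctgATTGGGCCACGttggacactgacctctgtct
Asns: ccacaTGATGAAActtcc
Chac1: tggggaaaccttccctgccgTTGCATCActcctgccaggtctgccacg
All of these stretches lie upstream of the start used for the window, and for Hspa5 and Asns they lie inside the full annotated span of the gene, which begins further upstream. A match is a description of the letters and not a test of binding.

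Mapped reads were inferred by taking the value that repeats most in a sample as 1 read. Per culture they ran from 1.00 to 38.2 M (median 4.67) and per mouse from 2.36 to 7.78 M, so that low values rest on little data in the shallow cultures. All 40 members were tested in cultures, 35 in the LPS mice (not Ddit3, Trib3, Nupr1, Vldlr and Asns, all low there) and 33 in the age comparison (also not Chac1 and Ppp1r15a). Microglial markers were present in every group given here: the summed level of 8 markers had a median of 5669.5 CPM in untreated cultures at 24 h and of 3674 CPM at 72 h. Untreated cultures differed between culture plates, so plate was a term in every culture comparison. Hspa5 ranged from 345 to 514 CPM in the 10 untreated cultures of 1 plate at 72 h and from 106 to 190 CPM on the other 3 plates. Of 84 member changes checked plate by plate (for the age comparison, by library series), 82 had the same direction in each. All had been picked as calls in fits over these same plates or series, so this agreement is no separate check. A gene was called where the adjusted p was under 0.05 (limma, Benjamini-Hochberg over all genes tested) and the change at least 1.5-fold, and log2 fold changes are of CPM + 1, given ± SE. The labels do not say whether the cultures or animals of a group were separate preparations, and p-values measure the spread between these samples. For cultures the column names give plate and well, and a group held wells of 1 to 6 plates. Their p-values therefore measure the spread between wells, with plate as a term. The header of the culture values gives 3 source IDs. Each group at 72 h held 1 of them, while LPS_hi and untreated cultures at 24 h held 3. Source was no term of its own, so time and source cannot be fully told apart where 72 h is set beside 24 h.

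Members differed in their level in untreated cultures. Hspa5 (BiP, the main ER chaperone) had lowest, median and highest values of 97.8, 196 and 414 CPM at 24 h. Trib3, a pseudokinase that restrains ATF4 output, stood at 0, 2.51 and 16.4 CPM, and Nupr1, a stress-induced chromatin protein, at 0, 1.79 and 7.19 CPM. Vldlr, a lipoprotein receptor that ATF4 can induce, was at 0 in 654 of 784 cultures and is given no further weight.

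Over 95 conditions each compared with untreated cultures, members were called higher in 467 of 3800 gene and condition pairs (12.3%) and lower in 223 (5.87%), against 3.3% and 5.15% of all pairs of genes and conditions. The conditions were uneven. No member was called in 27 of 95 conditions, 10 or more were called in 37, and the most in any was 22. At 24 h, 24 of 44 conditions called none, while at 72 h 1 of 42 called none. The share of all genes called also differed by time. With PA it was 0.0767% in either direction at 24 h, and 5.14% higher and 2.64% lower at 72 h. With LPS_hi it was 7.32% higher and 21.9% lower at 24 h, and 6.24% and 14.4% at 72 h. Each time has its own untreated cultures, so these counts are no result about the members alone. The roles also differed. The 6 stress outputs were higher in 18.2% of their pairs and lower in 0.702%, and amino acid supply was higher in 17.8% and lower in 5.92%. The 14 chaperones and folding enzymes were higher in 7.59% and lower in 8.65%, and the degradation genes in 2.37% and 5%. Sensors and transcription factors were higher in 15.5% and lower in 5.26%. Nupr1 was the member most often called higher (43 conditions), followed by Cebpb (42), a transcription factor of stress and inflammation, the mitochondrial folate enzyme Mthfd2 (35), Atf4 (33) and asparagine synthetase, Asns (29). Psat1, of serine synthesis, was most often lower (22 conditions), followed by the chaperone Hsp90b1 (20). The kinase PERK (Eif2ak3), the IRE1 gene Ern1, the BiP cofactor Dnajb9 and the degradation factor Edem1 were called higher in 0 of 95 conditions and lower in 13, 5, 5 and 11.

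**Figure D1:**
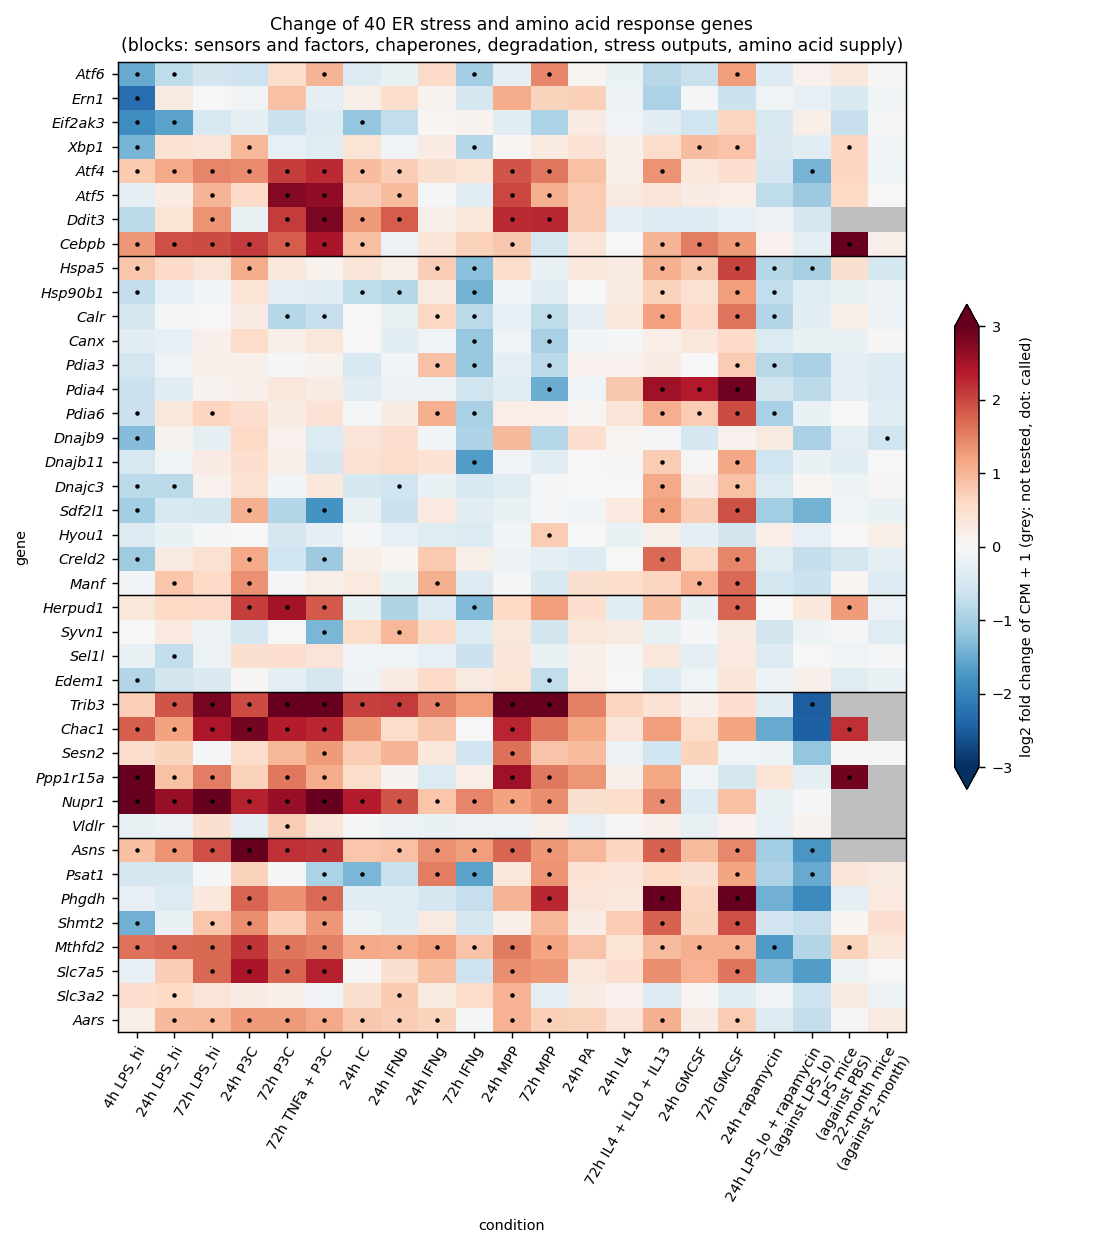
Log2 fold change of CPM + 1 (colour, red higher and blue lower, ending at 3 in each direction) of the 40 genes (rows, in 5 blocks by role) in 21 comparisons (columns), where a dot marks a call and grey a gene not tested. The block of stress outputs is red in the TLR and MPP columns, while the chaperone block is red chiefly under GMCSF, IL4 + IL10 + IL13 and, in part, P3C and IFNg at 24 h. Chaperones are blue in part under rapamycin, IFNg and MPP at 72 h and LPS_hi at 4 h.

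With LPS at 4 h, 3 of 6 stress outputs were called higher, while 4 of 8 sensors and factors and 6 of 14 chaperones were called lower, and at 72 h 0 members were lower. At 4 h, 8 members were called higher and 12 of 40 lower (7.27% and 28.4% of all genes, the latter close to the members' own share), at 24 h 11 and 4 (7.32% and 21.9%) and at 72 h 14 and 0 (6.24% and 14.4%). Because the median of all genes lay at -0.35 on the log2 scale at 4 h and rescaling the libraries moved it by 0.19, the split depends on scaling: it was 10 higher and 6 lower after rescaling at 4 h, and 16 and 1 at 24 h, where rescaling moved the median by 0.11.

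Ppp1r15a (GADD34), which brings a phosphatase back to eIF2α, rose most at 4 h. Its lowest, median and highest values were 272, 368 and 538 CPM with LPS_hi and 0, 20.4 and 72.7 CPM in untreated cultures, a log2 fold change of 4.23 ± 0.41 (adjusted p = 1.62e-21). All 7 LPS cultures lay above all 40 untreated ones. Nupr1 rose with it, from 0, 1.79 and 7.19 to 24.1, 40.1 and 46.6 CPM (3.59 ± 0.33, adjusted p = 1.14e-23), again without overlap. Chac1, which breaks down glutathione and is a direct ATF4 target, spread from 4.83 to 205 CPM between the 7 cultures, and only 3 lay above the untreated range (1.78 ± 0.65, adjusted p = 0.0207). That call was lost with adjustment over all 95 comparisons together (adjusted p = 0.0703) and with a pseudocount of 0.1 (0.059). The sensors fell in the same cultures. Ern1 went from 5.47, 20.2 and 62.9 to 0, 3.16 and 20 CPM, a change of -2.28 ± 0.46 (adjusted p = 8.86e-06), and Eif2ak3 from 0.715, 5.91 and 20.4 to 0, 0.712 and 2.17 CPM, a change of -1.87 ± 0.40 (adjusted p = 3.18e-05). In each, 4 of 7 LPS cultures lay under the untreated range. Xbp1 (-1.39) and Atf6 (-1.50) were also lower at 4 h, as were 6 of 14 chaperones (median of the 14 at -0.58, of all genes at -0.35), while Hspa5 was higher (0.84 ± 0.17, adjusted p = 1.33e-05). Mthfd2 rose from 12.6, 32.1 and 135 to 72.4, 119 and 188 CPM (1.63 ± 0.28, adjusted p = 9.25e-08).

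The 4 h conditions without LPS were compared with the same untreated cultures at 24 h, and each carried an agent of its own, so that hour and agent cannot be told apart in these either. CCL2 and CCL7, 2 chemokines, called 0 of 40 members each (0.124% and 0.272% of all genes), with 0 and 5 at an unadjusted p under 0.05 in limma, and ATP, nicotine and norepinephrine called 4 each (8.25%, 3.35% and 8.84%). Some of the members called with LPS were called there too. Atf6 was lower with norepinephrine alone (-1.96, adjusted p = 4.19e-06 in limma), its lowest change in the 95 conditions, and with ATP alone (-1.54, adjusted p = 0.00484). The call with ATP, in 5 cultures, was lost without replicate 4 (adjusted p = 0.101) or replicate 5 (0.0935). Dnajb11, also lower with ATP (-0.78, adjusted p = 0.0428 in limma), lost its call without replicate 3 (0.0906), 4 (0.299) or 5 (0.0759). Cebpb was higher with each of ATP, norepinephrine and nicotine (2.40, 1.79 and 1.33), and Ppp1r15a with ATP (2.00, adjusted p = 0.00139).

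At 24 h the chaperones lay near their untreated level (1 of 14 higher, 1 lower, median -0.12 against -0.18 for all genes) and the ATF4 targets were high. Cebpb separated the groups fully, with 216, 350.4 and 883 CPM against 29.9, 97.1 and 178 CPM (1.93 ± 0.18, adjusted p = 6.2e-24). Nupr1 stood at 5.4, 14.3 and 43.9 CPM, and 17 of 18 cultures lay above the untreated range (2.62 ± 0.22, adjusted p = 1.05e-27). Trib3 had 0, 13.3 and 60.3 CPM against 0, 2.51 and 16.4 CPM, with 7 of 18 above (1.88 ± 0.32, adjusted p = 5.07e-08). Among the amino acid genes Mthfd2 changed by 1.71 ± 0.19 and Asns by 1.36 ± 0.24 (adjusted p = 1.74e-17 and 1.14e-07). Asns was lower than untreated on 1 of 6 plates, and Eif2ak3 (-1.60 ± 0.27, adjusted p = 5.2e-08) was higher on 1 of 6. Slc7a11, the cystine importer and a further ATF4 target outside the 40 genes, was 22.2, 91.6 and 582 CPM against 3.12, 23 and 54.6 CPM (2.43 ± 0.30, adjusted p = 1.17e-13).

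At 72 h no member was lower, and the ATF4 arm was wide. Trib3 reached 3.16, 40.6 and 66.3 CPM against 0, 3.47 and 20.7 CPM in untreated cultures of that time, with 9 of 13 above the untreated range (2.85 ± 0.39, adjusted p = 1.76e-11). Asns had 4.69, 80.1 and 129.7 CPM against 3.73, 16.5 and 74.3 CPM (1.94 ± 0.29, adjusted p = 7.26e-10). Chac1 again differed widely between cultures, from 0.362 to 211 CPM, with untreated cultures from 0 to 120 CPM (2.42 ± 0.54, adjusted p = 0.000104). Nupr1 changed by 3.50 ± 0.27 and Cebpb by 1.96 ± 0.22 (adjusted p = 3.14e-32 and 7.32e-17). Ddit3 (CHOP), the transcription factor of prolonged stress, changed by 1.35 ± 0.30 (adjusted p = 0.000121) and Slc7a5, the light chain of an amino acid exchanger, by 1.72 ± 0.39 (adjusted p = 0.000122). Ero1l, an ER oxidase outside the 40 genes, and Serp1, which protects nascent membrane proteins, were higher too (1.89 ± 0.24 and 2.31 ± 0.13, adjusted p = 6e-13 and 4.66e-56). In LPS cultures the summed microglial markers were lower than in untreated ones (medians of 2701 CPM at 4 h, 1248 CPM at 24 h and 1703 CPM at 72 h), and their part in these changes was not tested.

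**Figure D2:**
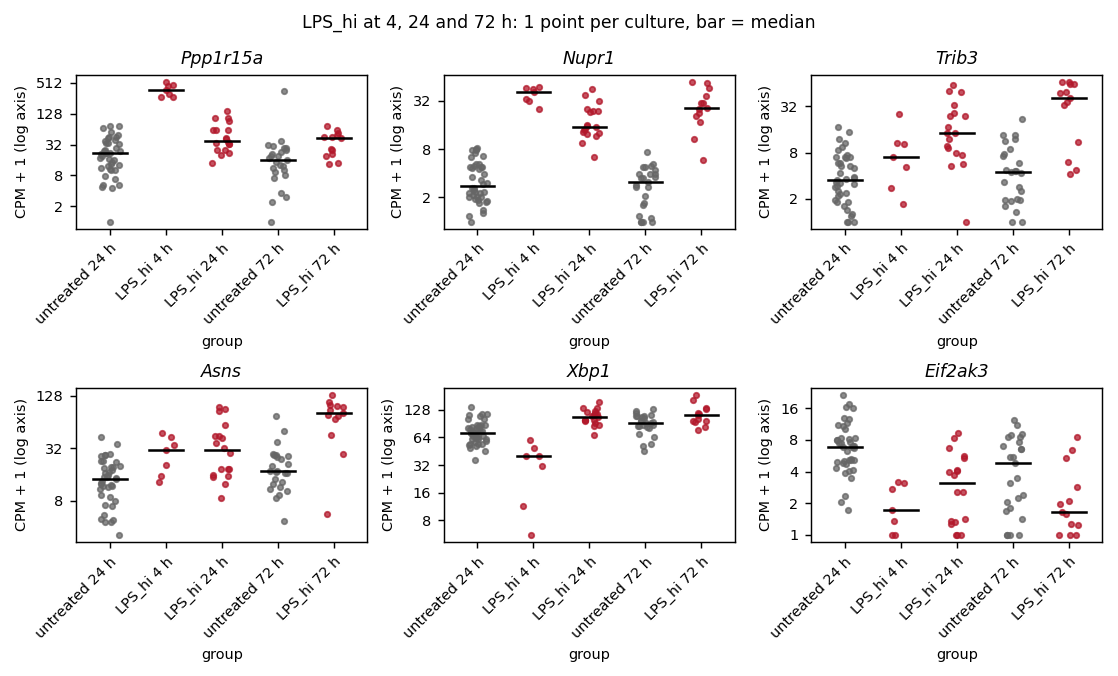
CPM + 1 on a log axis for 6 members in each culture (1 point per culture, bar at the median; grey untreated, red LPS_hi) at 4, 24 and 72 h. Ppp1r15a peaks at 4 h with a median of 368 CPM against 37.3 CPM at 24 h, Trib3 and Asns have their highest medians at 72 h (40.6 and 80.1 CPM), and Xbp1 has its lowest at 4 h (38.8 CPM).

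The times were compared directly at the high dose. At 4 h against 24 h, 2 members were higher and 9 lower (5.93% and 12% of all genes). Ppp1r15a was 10.2-fold higher at 4 h (3.35 ± 0.45, adjusted p = 1.77e-11), and Nupr1 was higher by 0.97 ± 0.36 (adjusted p = 0.0427). Xbp1 had 4.56, 38.8 and 58.2 CPM at 4 h and 67.3, 106 and 154 CPM at 24 h, without overlap (-1.81 ± 0.23, adjusted p = 5.99e-13). The change with LPS at 72 h minus that at 24 h passed for 2 members (3.85% of all genes higher, 2.45% lower), Dnajc3 (0.91 ± 0.25, adjusted p = 0.00799), an inhibitor of PERK and BiP cofactor, and Vldlr (0.66 ± 0.21, adjusted p = 0.0328), whose median was 0 CPM in both groups at 72 h. For the other 38 members this difference did not pass. At 24 h 0 members were called between LPS_hi and LPS_lo (0.354% of all genes were), and 0 had an unadjusted p under 0.05 in limma. At 72 h, 4 members were higher with LPS_hi than LPS_lo and 0 lower (0.897% and 2.73%): the secreted ER factor Manf (1.16 ± 0.20, adjusted p = 3.83e-06), Psat1 (1.11 ± 0.31, adjusted p = 0.0141), the disulfide isomerase Pdia6 (0.90 ± 0.21, adjusted p = 0.00177) and Hsp90b1 (0.59 ± 0.14, adjusted p = 0.0026).

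Norepinephrine (1 uM in the cultures labelled with it alone) added to LPS_hi at 4 h left the pattern close to that of LPS alone, with 6 members higher and 12 lower than untreated (6.74% and 22.5%). After rescaling, which moved the median of all genes by 0.14, the split was 10 higher and 5 lower. Against LPS_hi alone 1 member was called (2.82% of all genes in either direction). Cebpb had 418, 586 and 673 CPM with both agents and 149.7, 198 and 367 CPM with LPS alone, without overlap (1.25 ± 0.32, adjusted p = 0.00869). Against untreated cultures Ppp1r15a changed by 2.63 ± 0.39, Nupr1 by 2.45 ± 0.31 and Chac1 by 2.32 ± 0.62 (adjusted p = 6.41e-10, 5.39e-13 and 0.00124). Dnajb9 had 0, 1.21 and 10 CPM against 0.918, 9.24 and 24.8 CPM (-1.59 ± 0.40, adjusted p = 0.000539), and Eif2ak3 changed by -1.85 ± 0.38 (adjusted p = 1.51e-05).

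P3C at 24 h moved both arms at once: 17 members were higher and 0 lower (4.99% and 15% of all genes), among them 6 of 8 amino acid genes and 4 of 14 chaperones. Asns had 57.7, 132 and 176 CPM against 2.24, 13.3 and 41.9 CPM, with no overlap (3.07 ± 0.37, adjusted p = 2.98e-14), the highest change of Asns in any of the 95 conditions. Chac1 had 9.16, 116 and 311 CPM (2.87 ± 0.69, adjusted p = 0.000437) and Slc7a5 17.6, 46.1 and 53.2 CPM against 0, 6.14 and 19.3 CPM (2.45 ± 0.50, adjusted p = 1.94e-05). In both, 5 of 6 cultures lay above the untreated range. Cebpb (2.09 ± 0.28) and Nupr1 (2.31 ± 0.35) did not overlap with untreated (adjusted p = 9.57e-12 and 2.25e-09), and Mthfd2 changed by 2.13 ± 0.29 (adjusted p = 3.91e-11). Herpud1, an ER degradation factor with both promoter motifs shown above, rose by 2.08 ± 0.44 (adjusted p = 4.37e-05), Manf by 1.37 ± 0.21 and Hspa5 by 1.11 ± 0.18 (adjusted p = 7.36e-09 and 6.2e-08). Of 38 other ATF4 and amino acid genes 20 were higher and 3 lower (median 0.97), with Slc7a11 at 149, 353 and 1024 CPM against 3.12, 23 and 54.6 CPM (3.82 ± 0.48, adjusted p = 3.37e-13). At 72 h P3C called 14 members higher and 1 lower (5.99% and 4.61%), with 5 of 6 stress outputs and 0 of 14 chaperones among the higher ones.

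Interferons and Poly(I:C), which signal viral infection or immune activation, each changed members at 24 h. IFNg at 24 h raised 11 members and lowered 0 (5.13% and 6.68% of all genes), and 5 of the 11 were chaperones. Manf had 521, 1075 and 1451 CPM against 118, 513 and 960.4 CPM (1.06 ± 0.18, adjusted p = 2.12e-07) and Pdia6 142, 239 and 367 CPM against 35.5, 132 and 192 CPM (1.06 ± 0.19, adjusted p = 1.05e-06). For Manf 6 and for Pdia6 7 of 9 cultures lay above the untreated range. Psat1 rose by 1.54 ± 0.28 (adjusted p = 1.53e-06), with 89.5, 136 and 187 CPM against 24, 53.2 and 125 CPM. Asns (1.36 ± 0.31) and Mthfd2 (1.23 ± 0.25) rose with wide overlap (adjusted p = 0.000294 and 2.23e-05), and Trib3 had 3.08, 8.91 and 19.3 CPM (adjusted p = 0.00504). At 72 h the same agent was followed by 3 members higher and 11 lower (5.93% and 12%), 7 of them chaperones. There Hsp90b1 had 60.3, 96.7 and 171 CPM against 132, 277 and 378 CPM (-1.42 ± 0.16, adjusted p = 2.11e-16), and Dnajb11, a BiP cofactor, changed by -1.68 ± 0.26 (adjusted p = 9.1e-09). The difference between the IFNg changes at the 2 times was not tested.

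IFNb at 24 h raised 10 members and lowered 2 (5.18% and 5.57%), with 0 of 14 chaperones higher. Ddit3 had 11.8, 17.8 and 25 CPM against 0, 5.13 and 17.8 CPM, and 5 of 10 cultures lay above the untreated range (1.83 ± 0.31, adjusted p = 3.6e-07). Trib3 had 5.18, 15.1 and 20.4 CPM (2.10 ± 0.40, adjusted p = 7.17e-06) and Nupr1 4.73, 10.1 and 17.2 CPM (1.88 ± 0.28, adjusted p = 2.51e-09). Mthfd2 changed by 1.10 ± 0.24 (adjusted p = 8.68e-05). The ubiquitin ligase Syvn1 (0.99 ± 0.33, adjusted p = 0.0278) and Atf5 (0.95 ± 0.27, adjusted p = 0.00592) lost their calls without the plate term (adjusted p = 0.149 and 0.0667), and Syvn1 also with library pool in place of plate and without the shallow cultures. Poly(I:C) at 24 h raised 7 and lowered 3 (4.52% and 5.72%). Nupr1 had 10.5, 14.7 and 23 CPM, above every untreated culture (2.34 ± 0.31, adjusted p = 8.68e-12), and Trib3 3.87, 14.9 and 37 CPM (2.05 ± 0.44, adjusted p = 0.000104). Psat1 moved the opposite way from IFNg, to 5.92, 15.8 and 72 CPM (-1.36 ± 0.29, adjusted p = 8.92e-05). Ddit3 and Mthfd2 rose by 1.28 ± 0.34 and 1.13 ± 0.26 (adjusted p = 0.00363 and 0.00036). The lower value of Eif2ak3 (-1.15 ± 0.38, adjusted p = 0.0251) was no longer called without cultures under 2 M reads (adjusted p = 0.0932) or, being under 1.5-fold there, with a pseudocount of 5. Eif2ak2, the eIF2α kinase that senses double-stranded RNA and is no member, rose under all of IFNb (1.95 ± 0.26), IFNg (1.19 ± 0.27) and Poly(I:C) (1.09 ± 0.29; adjusted p = 1.5e-11, 0.000303 and 0.00266).

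IL4 at 24 h called 0 of 40 members (1.77% of all genes in either direction), in 11 cultures. In limma 8 members, all higher, had an unadjusted p under 0.05, and the smallest adjusted p was 0.0797, for Manf. The count was 2 without the plate term and 1 with a pseudocount of 5.

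Rapamycin lowered 5 chaperones and Mthfd2. It called 0 members higher and 6 lower at 24 h, against 0.059% and 0.177% of all genes, so that 6 of the 30 genes called lower in the whole table were members. Mthfd2 had 2.72, 8.27 and 36.6 CPM against 12.6, 32.1 and 135 CPM, and 9 of 11 cultures lay under the untreated range (-1.69 ± 0.22, adjusted p = 2.45e-09). Hspa5 had 79.5, 112 and 213 CPM against 97.8, 196 and 414 CPM (-0.86 ± 0.14, adjusted p = 4.01e-06). On each of 4 plates the mean with rapamycin was lower, with log2 differences of -0.71 or lower. The groups did not overlap on 3 of them, with 207 to 213 CPM against 329.7 to 414 CPM, 147 to 161 CPM against 232 to 268 CPM and 109 to 112 CPM against 129 to 269 CPM, and overlapped on the other, with 79.5 to 111 CPM against 104 to 292 CPM. Calr, a lectin chaperone, changed by -0.87 ± 0.13, Hsp90b1 by -0.75 ± 0.11, Pdia6 by -0.98 ± 0.17 and Pdia3, an isomerase that works with Calr, by -0.83 ± 0.18 (adjusted p = 1.88e-07, 8.15e-07, 3.18e-05 and 0.00318). Without the plate term Pdia6, Hspa5 and Pdia3 were no longer called (adjusted p = 0.124, 0.225 and 0.867). The count was 13 lower with adjustment over all comparisons together and 1 at a minimum of 2-fold. Of 48 other ER genes and 38 other ATF4 genes 0 were called.

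With LPS_lo in both arms, rapamycin lowered 5 members and raised 0 (0.272% and 0.366% of all genes, 7 cultures against 7). Trib3 had 0.181, 3.59 and 11 CPM with rapamycin and 7.55, 21.2 and 43 CPM with LPS_lo alone, and 6 of 7 lay under the range of LPS_lo alone (-2.47 ± 0.59, adjusted p = 0.0104). Atf4 itself had 89, 91.9 and 200.5 CPM against 149, 299.7 and 462 CPM (-1.41 ± 0.29, adjusted p = 0.00125). Asns (-1.75 ± 0.44), Psat1 (-1.52 ± 0.39) and Hspa5 (-1.01 ± 0.22) were the other 3 (adjusted p = 0.0173, 0.0246 and 0.00233). The count was 2 without the plate term and 2 with a pseudocount of 0.1.

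GMCSF at 72 h called 22 members higher and 0 lower (7.53% and 2.44% of all genes), as many in all as TNFa + P3C, and it moved the chaperone arm with the amino acid genes but 0 of 6 stress outputs. Of 14 chaperones 11 were higher (median 1.36) and of 8 amino acid genes 7 (median 1.31), with the median of all genes at 0.01. Hspa5 had 451, 628 and 853 CPM against 106, 181 and 514 CPM (2.02 ± 0.19, adjusted p = 4.91e-22). On the same plates the groups were apart, with 451 to 567 CPM against 118 to 136 CPM on one and 628 to 853 CPM against 142 to 181 CPM on the other. The isomerases Pdia4 and Pdia6 did not overlap with untreated at all: Pdia4 had a lowest value of 31.4 and a median of 53.2 CPM against 0.626, 12.6 and 30.8 CPM (2.91 ± 0.42, adjusted p = 1.31e-09), and Pdia6 297, 369 and 468 CPM against 33.7, 119 and 249 CPM (1.95 ± 0.23, adjusted p = 5.01e-14). Sdf2l1, an ER chaperone subunit, had 34.4, 71.1 and 104 CPM (1.91 ± 0.40, adjusted p = 0.000121). Phgdh, the first enzyme of serine synthesis, had 56.2, 76.5 and 127 CPM against 0, 6.13 and 40.1 CPM, without overlap (3.45 ± 0.50, adjusted p = 3.5e-09), and the mitochondrial enzyme Shmt2 5.95, 67.4 and 87.9 CPM (1.93 ± 0.41, adjusted p = 0.000107). Atf6 (1.26), Xbp1 (0.86) and Cebpb (1.28) were the 3 factors called. Among 48 other ER genes 18 were higher and 0 lower, with the translocon protein Ssr2 at 2.19 ± 0.29 (adjusted p = 3.51e-11). Slc7a11 was lower (-2.12 ± 0.49, adjusted p = 0.000552), opposite to its change with LPS and P3C. The summed proliferation markers had a median of 1081 CPM with GMCSF (149 to 1372) and of 69.1 CPM in untreated cultures (9.11 to 789), and their part in these changes was not tested. At 24 h GMCSF called 7 members higher (1.69% of all genes), 4 of them chaperones, with Pdia4 at 13.8, 93.6 and 149 CPM against 0.827, 13.9 and 40.4 CPM (2.39 ± 0.36, adjusted p = 2.61e-08).

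The mix of IL4, IL10 and IL13 at 72 h called 17 members higher and 0 lower (3.95% and 5.21%), 9 of them chaperones and 5 amino acid genes. Pdia4 had 17.5, 66.6 and 152 CPM against 0.626, 12.6 and 30.8 CPM (2.54 ± 0.44, adjusted p = 1.24e-06) and Phgdh 33.5, 63.7 and 147 CPM against 0, 6.13 and 40.1 CPM (2.98 ± 0.53, adjusted p = 3.17e-06). Hspa5 changed by 1.08 ± 0.20 and Calr by 1.23 ± 0.18 (adjusted p = 6.73e-06 and 5.33e-09). Of the stress outputs Nupr1 alone was called (1.41 ± 0.38, adjusted p = 0.0048). Added to LPS_lo, the same mix raised 6 members and lowered 3 (2.92% and 2.99%, 5 cultures against 11 with LPS_lo alone). The 6 were all chaperones, led by Pdia4 with 36, 55.4 and 269 CPM against 3.4, 13.9 and 35.2 CPM (2.80 ± 0.51, adjusted p = 6.75e-06) and Sdf2l1 with 20.5, 39.6 and 64 CPM against 1.07, 11.2 and 17.2 CPM (2.41 ± 0.50, adjusted p = 0.000118). Neither overlapped with LPS_lo alone. The 3 lower ones were Nupr1 (-2.31 ± 0.44), Trib3 (-1.95 ± 0.63) and Atf5 (-1.32 ± 0.42), all on the ATF4 side (adjusted p = 1.9e-05, 0.0381 and 0.0335). With each of the 5 cultures left out in turn, Pdia6 lost its call every time (adjusted p from 0.0519 to 0.108), Hspa5 without replicate 5 (0.139), and Trib3 and Atf5 without replicate 4 (0.181 and 0.158) or replicate 5 (0.0897 and 0.274).

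TNFa + P3C and MPP raised stress outputs rather than chaperones. TNFa + P3C at 72 h called 17 members higher and 5 lower (8.58% and 10.9% of all genes), with 5 of 6 stress outputs higher (median 1.77) and 3 of 14 chaperones lower (median -0.08, all genes -0.07). Without cultures under 2 M reads 13 members were higher and 0 lower. Trib3 had 41.7, 101 and 206 CPM against 0, 3.47 and 20.7 CPM, with no overlap, and its change of 4.53 ± 0.49 (adjusted p = 4.86e-17) was its largest in the 95 conditions. Nupr1 (11.1, 27.8 and 40.6 CPM) and Cebpb (235, 424 and 609 CPM) did not overlap with untreated either (3.34 ± 0.34 and 2.46 ± 0.28, adjusted p = 8.97e-19 and 4.52e-16). Ddit3 had 13.8, 27.2 and 69.2 CPM against 0, 4.4 and 27.9 CPM (2.82 ± 0.38, adjusted p = 3.47e-11). Atf5, a factor translated like ATF4, had 89.8, 175 and 364 CPM against 10.4, 39.8 and 114 CPM (2.65 ± 0.33, adjusted p = 1.81e-13), and Slc7a5 0, 15.6 and 35.4 CPM (2.31 ± 0.49, adjusted p = 5.45e-05). Outside the 40 genes Ero1l went from 1.67, 24.1 and 59.4 to 644, 813 and 908 CPM, without overlap (5.08 ± 0.31, adjusted p = 5.46e-49), and Vegfa, the vascular growth factor and an ATF4 target, from 0, 1.17 and 26.2 to 13.7, 25.3 and 124 CPM (4.12 ± 0.46, adjusted p = 2.46e-16). Among 38 other ATF4 and amino acid genes 16 were higher and 3 lower.

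MPP acted on the ATF4 side at both times. At 24 h it called 14 members higher and 0 lower (2.1% and 3.06% of all genes), with 5 of 6 stress outputs, 5 of 8 amino acid genes, 4 of 8 factors and 0 of 14 chaperones. Trib3 had 23.2, 61.4 and 118 CPM against 0, 2.51 and 16.4 CPM, Atf4 297, 616 and 737 CPM against 59.9, 139 and 295 CPM and Atf5 118, 192 and 221 CPM against 16.4, 43.4 and 102 CPM. None of the 3 overlapped with untreated (3.89 ± 0.44, 1.89 ± 0.22 and 2.00 ± 0.29, adjusted p = 1.28e-14, 2.61e-14 and 7.36e-09). Ddit3 changed by 2.23 ± 0.34 and Sesn2, an inhibitor of mTOR signalling, by 1.66 ± 0.43 (adjusted p = 5.21e-08 and 0.00428). At 72 h MPP called 13 higher and 5 lower (2.72% and 5.16%), or 15 and 2 after rescaling. Trib3 had 31.4, 59.5 and 78.3 CPM against 0, 3.47 and 20.7 CPM, without overlap (3.62 ± 0.54, adjusted p = 1.94e-08). Ddit3 (2.26 ± 0.42), Atf4 (1.59 ± 0.27), Ppp1r15a (1.59 ± 0.47) and Phgdh (2.27 ± 0.53) rose with some overlap (adjusted p = 1.35e-05, 6.87e-07, 0.0145 and 0.00113). Of the chaperones 4 were lower and 1 higher (median -0.34). Pdia4 had 1.15, 2.43 and 9.01 CPM against 0.626, 12.6 and 30.8 CPM (-1.48 ± 0.44, adjusted p = 0.0155) and lost its call without the plate term (adjusted p = 0.0812) and with a pseudocount of 0.1 (0.0516). The summed microglial markers were at a median of 1937 CPM with MPP at 24 h and 2699.8 CPM at 72 h, under the untreated medians, and their part was not tested.

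**Figure D3:**
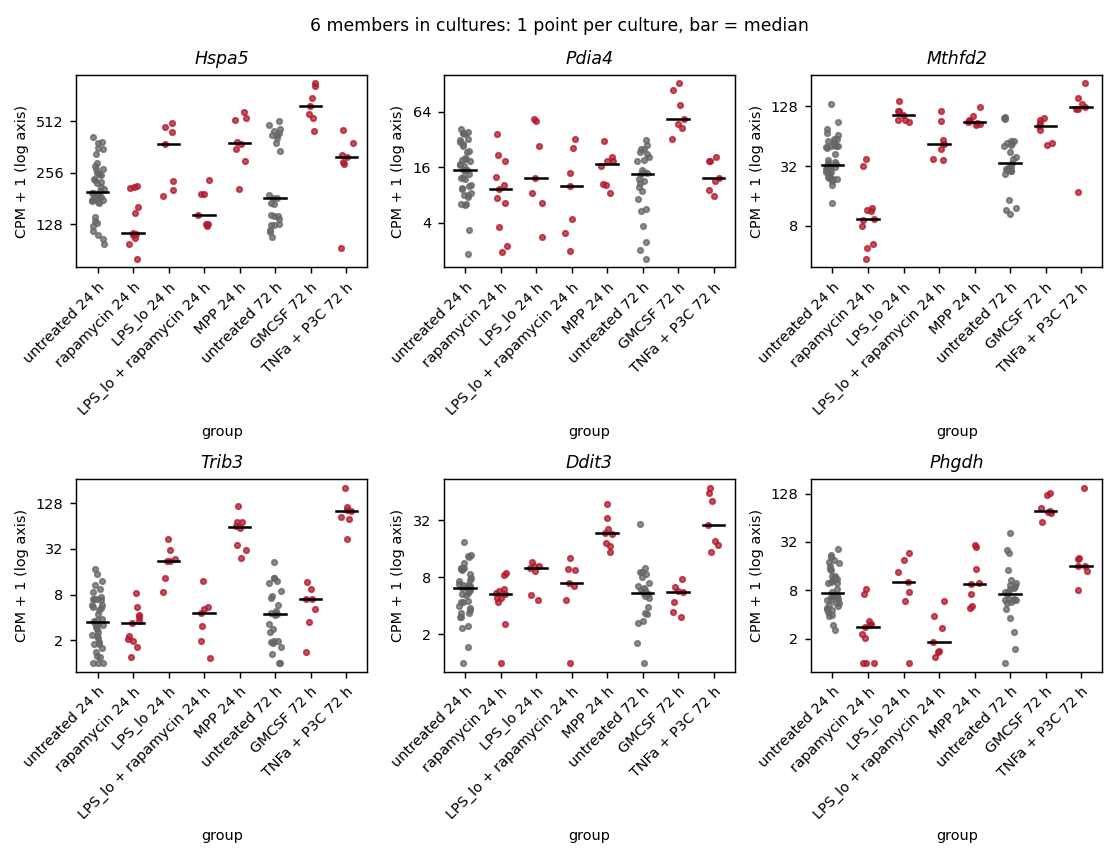
CPM + 1 on a log axis for 6 members in each culture of 8 groups (1 point per culture, bar at the median; grey untreated, red treated). The chaperones Hspa5 and Pdia4 have their highest medians under GMCSF (628 and 53.2 CPM), while Trib3 and Ddit3 are high under MPP at 24 h (medians of 61.4 and 22.1 CPM) and TNFa + P3C, and rapamycin lies low for Hspa5 and Mthfd2.

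Set side by side over all 95 conditions, the medians of the chaperones and of the stress outputs were highest in different conditions. The chaperone median was highest with GMCSF at 72 h (1.36), where that of the stress outputs was 0.32, and the stress output median was 1.98 with LPS_hi at 72 h, 1.98 with P3C at 72 h and 1.97 with MPP at 24 h, where that of the chaperones was 0.15, -0.05 and -0.09. Both were above 0 in some conditions, at 0.51 for chaperones and 1.33 for stress outputs with P3C at 24 h and at 0.92 and 0.79 with IL4 + IL10 + IL13 at 72 h. Across the means of 97 groups of cultures, the median Pearson correlation was 0.40 between pairs of chaperones, 0.38 between pairs of stress outputs and -0.07 between a chaperone and a stress output, and 0.02 between members and all genes tested. These correlations describe group means that share plates, untreated cultures and depth, and carry no test. Among all 16942 genes tested, those whose group means were most like Hspa5 were Pdia6 (r = 0.76), Manf (0.70) and Calr (0.66), and those most like Asns were Mthfd2 (0.82), Aars (0.80), the alanyl-tRNA synthetase, and Atf4 (0.80). All 6 are members, but other members stood far from them. The chaperone Hyou1 had r = -0.26 with Hspa5 (rank 16537), and Eif2ak3 had r = -0.48 with Asns (rank 16014). Pairs of chaperones ran from -0.35 to 0.80 and pairs of stress outputs from -0.12 to 0.69.

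**Figure D4:**
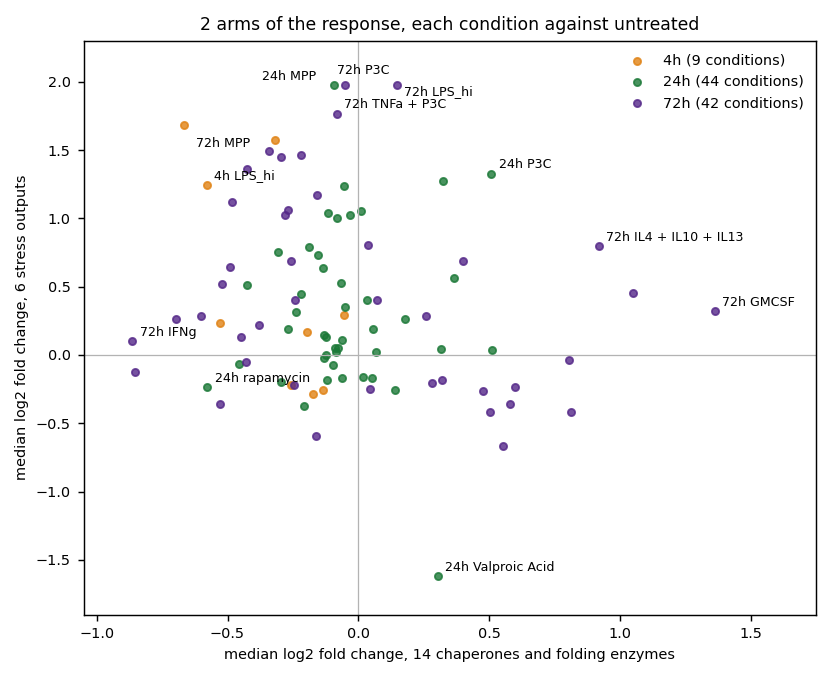
Median log2 fold change of CPM + 1 of the 14 chaperones and folding enzymes (horizontal) and of the 6 stress outputs (vertical) in each of 95 conditions against untreated cultures, coloured by time (1 point per condition, 12 named). GMCSF and IL4 + IL10 + IL13 lie to the right, MPP, P3C, LPS_hi and TNFa + P3C lie high with chaperone medians near 0 or, for P3C at 24 h, at 0.51. Valproic acid at 24 h lies lowest (-1.62), but only 2 of its 6 cultures shared a plate with untreated cultures of that time.

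Second agents lowered ATF4 targets in some mixes, for which the labels give a single dose. In other mixes no member was called. These were LPS_hi with estradiol, GABA or minocycline at 24 h, each against LPS_hi alone. Against LPS_lo alone they were CCL2 at 24 h and eotaxin, estradiol, IC, IL10 or IL13 at 72 h. Without the plate term fewer members were called over all combinations, as given further below. PGE2, prostaglandin E2, added to P3C for 72 h lowered 8 members and raised 1 (3.65% and 2.03% of all genes, 7 cultures against 6 with P3C alone). Trib3 had 4.14, 8.83 and 38 CPM against 46.8, 87.8 and 112 CPM, Ddit3 0, 4.22 and 5.72 CPM against 15.7, 18.7 and 25 CPM and Atf4 143, 239.9 and 376 CPM against 513, 613 and 833 CPM. In all 3 the groups did not overlap (-2.81 ± 0.62, -2.49 ± 0.48 and -1.26 ± 0.30, adjusted p = 0.000424, 3.54e-05 and 0.00191), and Calr was the 1 member higher (0.62 ± 0.21, adjusted p = 0.0489). IFNg added to LPS_lo for 72 h lowered 8 members and raised 0 (2.43% and 1.79%). Atf5 had 8.43, 32.6 and 75.5 CPM against 55.8, 176 and 227 CPM with LPS_lo alone (-2.20 ± 0.37, adjusted p = 5.24e-07) and Trib3 0.241, 10.7 and 21.7 CPM against 6.6, 47.7 and 101 CPM (-2.28 ± 0.55, adjusted p = 0.00229). For Atf5, 6 of 7 cultures lay under the range of LPS_lo alone. TGFb added to LPS_lo lowered 7 and raised 0 (1.97% and 2.32%), among them Trib3 (-2.10 ± 0.53), Chac1 (-2.36 ± 0.74), Atf4 (-1.23 ± 0.26) and Asns (-1.33 ± 0.39; adjusted p = 0.0037, 0.0349, 0.000224 and 0.0216). These 3 comparisons with LPS_lo, the IL4 mix included, share the same 11 LPS_lo cultures.

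The fatty acids were compared at a matched dose of 150 uM, in 4 pairs (PA against OA and against LiA, at 24 and 72 h), with adjustment over all genes within each. Palmitic acid is saturated, oleic acid has a single double bond and linoleic acid more than one. PA at 24 h called 0 of 40 members against untreated (0.0767% of all genes), and 10, all higher, had an unadjusted p under 0.05 in limma. The smallest adjusted p was 0.154, for Atf4. Against the same untreated cultures Atf4 changed by -0.47 ± 0.22 with OA and by -0.30 ± 0.21 with LiA, neither of them called. Against OA at 24 h PA differed in 1 member (0.0413% of all genes): Atf4 had 121, 315 and 641 CPM with PA and 52.4, 117 and 184 CPM with OA, with 3 of 6 above the OA range (1.35 ± 0.29, adjusted p = 0.0127; 95% interval 0.77 to 1.93). Rescaling the libraries took that call away, and the count over the 4 pairs was 3 with a pseudocount of 5 or without the filter and 2 without shallow cultures. Against LiA at 24 h 0 members were called (0.0531%) and 9 had an unadjusted p under 0.05 in limma, with Atf4 at 1.18 ± 0.29 (adjusted p = 0.0683, interval 0.62 to 1.74). Trib3 differed by 2.06 ± 0.60 from OA and 2.00 ± 0.59 from LiA (intervals 0.88 to 3.23 and 0.85 to 3.15, adjusted p = 0.326 and 0.489), and Hspa5 by 0.67 ± 0.22 and 0.55 ± 0.21 (intervals 0.24 to 1.11 and 0.13 to 0.97, adjusted p = 0.509 and 1). At 72 h 0 members were called in either pair (0.667% and 0.761% of all genes), and 4 and 5 had an unadjusted p under 0.05 in limma. For Hspa5 the difference was 0.32 against OA (interval -0.11 to 0.75) and for Trib3 it was -1.06 (interval -2.22 to 0.10). Against untreated cultures at 72 h, all 3 raised chaperones and 0 lowered any: PA called 9 members higher and 1 lower (5.14% and 2.64%), OA 8 and 1 (3.71% and 1.27%) and LiA 5 and 0 (4.22% and 0.767%), with 6, 5 and 4 chaperones. Hspa5 had 157, 403 and 533 CPM with PA, 132, 321 and 421 CPM with OA and 193, 295 and 523 CPM with LiA, against 106, 181 and 514 CPM in untreated cultures (1.20 ± 0.19, 0.88 ± 0.19 and 0.99 ± 0.18, adjusted p = 1.36e-07, 0.000511 and 1.5e-05).

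In mice, LPS for 4 h raised 6 and lowered 0 of the 35 members tested (7.76% and 10.1% of all genes). Rescaling moved the median of all genes, at -0.19, by 0.17 and gave 8 higher and 0 lower. The tables of mice and cultures were normalized separately, and no test was made across them. Cebpb had 873, 1265, 1412 and 1037 CPM in the LPS mice and 145, 112, 144 and 144 CPM in the PBS mice (3.04 ± 0.19, adjusted p = 1.24e-06). Ppp1r15a had 175, 173, 199.7 and 134 CPM against 21.6, 18.9, 24.7 and 21.9 CPM (2.91 ± 0.17, adjusted p = 7.41e-07). Chac1 had 17.1, 14.9, 24.6 and 20.2 CPM against 3.92, 2.02, 3.36 and 4.49 CPM (2.19 ± 0.22, adjusted p = 5.17e-05). In all 3 genes every LPS mouse lay above every PBS mouse by a wide margin. Herpud1 had 309.5, 300.2, 378 and 387 CPM against 130.1, 128, 148 and 162 CPM (1.27 ± 0.16, adjusted p = 0.000283). Xbp1 had 393, 360.2, 349 and 290.4 CPM against 218, 206, 239.8 and 228 CPM (0.64 ± 0.15, adjusted p = 0.0138), and Mthfd2 17.6, 14.4, 18.9 and 22.3 CPM against 9.22, 13.3, 12.1 and 8.99 CPM (0.70 ± 0.19, adjusted p = 0.0245). These groups did not overlap either, but Mthfd2 lost its call when any of LPS replicates 3 and 4 or PBS replicates 1 and 4 was left out (adjusted p from 0.0609 to 0.071), and Xbp1 fell under 1.5-fold without LPS replicate 1 (0.58 on the log2 scale).

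Of the 14 chaperones 0 were called in these mice. Hspa5 had 618, 565, 517 and 503 CPM against 428, 369.6, 396 and 391 CPM, again with every LPS mouse above every PBS mouse. Its change of 0.47 ± 0.14 (adjusted p = 0.0406) was under 1.5-fold. Atf4 changed by 0.64 ± 0.21 (adjusted p = 0.0565). Trib3 (0 to 2.04 CPM), Nupr1 (2.37 to 4.63 CPM), Asns (0.926 to 2.61 CPM) and Ddit3 (1.06 to 3.40 CPM), which were high in LPS cultures, were too low to be tested in the LPS mice. Of 30 other ATF4 and amino acid genes tested 6 were higher and 1 lower, with Jdp2, a transcription factor of the AP-1 family, at 2.57 ± 0.21 and Slc7a11 at 2.41 ± 0.24 (adjusted p = 1.02e-05 and 5.17e-05), both without overlap. The summed immediate early genes, 7 of 7 tested higher, were at 3077 to 3737 CPM in LPS and 361 to 411 CPM in PBS mice, neutrophil markers at 179 to 328 CPM and 81.8 to 149 CPM (3 of 5 tested higher), and monocyte markers at 81.9 to 152 CPM and 27.6 to 66.1 CPM (4 of 5 higher, 1 lower). Summed microglial markers overlapped, at 42773 to 46201 CPM and 38762 to 49285 CPM, but 2 of 8 tested were called lower and 0 higher. The part of these in the changes of the members was not tested.

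**Figure D5:**
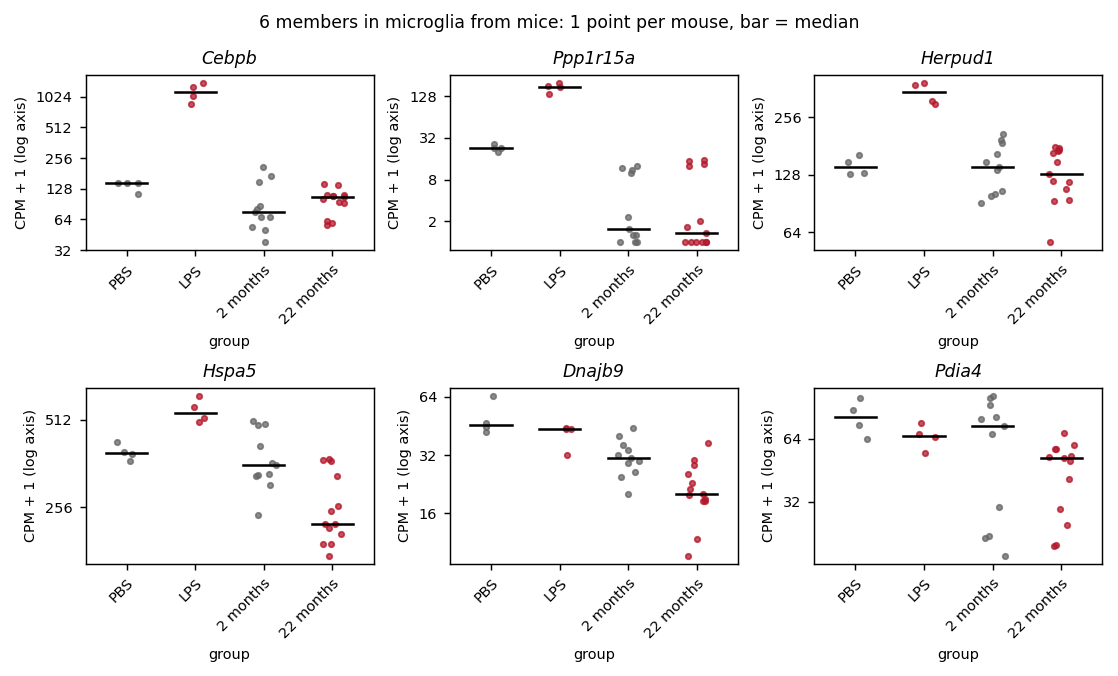
CPM + 1 on a log axis for 6 members in microglia of each mouse (1 point per mouse, bar at the median; grey PBS and 2 months, red LPS and 22 months). Cebpb, Ppp1r15a and Herpud1 separate LPS from PBS mice, Hspa5 does so by less than 1.5-fold, and Dnajb9 is lower at 22 months with overlap.

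Age moved few members. At 22 months against 2 months 0 members were called higher and 1 lower of 33 tested (3.3% and 0.55% of all genes). Dnajb9, a BiP cofactor induced by XBP1, had lowest, median and highest values of 8.7, 19.3 and 36 CPM at 22 months and 19.2, 30 and 43.4 CPM at 2 months, and 6 of 13 aged mice lay under the young range (-0.60 ± 0.17, adjusted p = 0.0255). Libraries of these mice were numbered in 2 series that differ in the sum of listed values (885237 to 935291 CPM and 980659 to 983443 CPM per mouse), so series was a term. The mean was lower at 22 months in both, 18.7 against 30.3 CPM in the first (4 and 4 mice) and 21.7 against 30.8 CPM in the second (9 and 7). Without the series term the call was lost (adjusted p = 0.0719), as it was in the first series alone (0.555) and, by falling under 1.5-fold, in the second alone. Other members passed the adjusted p with a change under 1.5-fold: Hspa5 (-0.54 ± 0.12, adjusted p = 0.0054), Pdia4 (-0.41 ± 0.12, adjusted p = 0.0301), Pdia3 (-0.39 ± 0.10, adjusted p = 0.0179) and, in the higher direction, Shmt2 (0.51 ± 0.12, adjusted p = 0.0071). Hspa5 had 173, 223 and 375 CPM at 22 months and 239, 357 and 505 CPM at 2 months. The median of the 14 chaperones was -0.25, with that of all genes at 0.01. Summed neutrophil markers had medians of 1185 CPM at 22 months and 578 CPM at 2 months, and their part was not tested. The sexes of the LPS and aging mice differ, and the 2 experiments were not compared.

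Of the 40 members, 14 share exon bases with another annotated gene, 4 on the same strand and 13 on the other (Ddit3 with Mars is an example), and Salmon set the library type, strand included, by its automatic detection, whose outcome is not given in the sources used here, so that their reads may include those of the partner.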

How the data were processed

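Microglial cultures (784) and microglia of mice (32) were profiled by 3′-end RNA sequencing. The authors counted reads with Salmon 0.7.1, and the deposited values are CPM, reads per gene per M (mega) mapped reads, which the study calls TPM. The labels name the build mm8, while the methods of the study name an Ensembl mouse build for the gene models. At least 70.2% (cultures) and 79.4% (mice) of the low values per library came out as whole reads, too few for a count model.

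Groups were taken from the labels. limma 3.58.1 (R 4.3.3) was fitted to log2(CPM + 1), with plate as a term over all cultures and library series as a term for age, on genes above 5 CPM in at least 4 cultures or LPS mice or 11 aging mice (16942, 9012 and 9632 genes). P-values were adjusted over all genes tested in each comparison, and a call needed adjusted p under 0.05 and 1.5-fold. Named members were up to 6 per comparison, those called with the largest change and a mean of at least 5 CPM in a group, and up to 3 pathway genes; members of further comparisons and of lists were named after their values were seen. The scripts were tested on simulated data. The members and lists were chosen with earlier results of these data known. Alternatives were other pseudocounts, filters, scalings, terms, folds, depths, left-out mice or cultures and a replicate block. A culture labelled LPS_hi with the low dose entered no comparison. Precision at a few CPM is limited by depth, 1.00 to 38.2 M reads per culture.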

Additional observations from a re-analysis of the deposited data

Results flagged for a closer look

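In 5 of 66 pairs of a named member and a group (7.58%) 1 sample stood apart from the rest, where chance gives about 1 in 20. Slc7a5 was 17.6 CPM in 1 of 6 P3C cultures at 24 h, with the next at 36.2 CPM. Ddit3 was 3.48 CPM in 1 of 8 Poly(I:C) cultures at 24 h, with the next at 11.5 CPM. Trib3 was 5.18 CPM in 1 of 10 IFNb cultures at 24 h, with the next at 11.4 CPM. Shmt2 was 5.95 CPM in 1 of 7 GMCSF cultures at 72 h, with the next at 30.2 CPM. Cebpb was 112 CPM in 1 of 4 PBS mice, with the next at 144 CPM. Each lay at the low end of its group.

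The change with LPS_hi was larger at 72 h than at 24 h for Dnajc3, by 0.914 on the log2 scale (limma, adjusted p = 0.00799), and for Vldlr, by 0.655 (adjusted p = 0.0328). A 72 h culture labelled LPS_hi but with the dose of LPS_lo entered no comparison. It had 36.4 CPM of Trib3 (highest untreated culture 20.7 CPM), 246 CPM of Chac1 (120 CPM) and 147 CPM of Mthfd2 (100 CPM). Other members went another way. Nupr1 (2.29 CPM), Atf4 (186 CPM) and Atf5 (13.7 CPM) lay within the untreated range. They also lay under the lowest LPS_hi culture of 72 h (4.90, 228 and 24.5 CPM).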

How the results depend on the processing

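No paired analysis was possible for the cultures because their labels give no replicate numbers and their column names only plate and well. The labels do not number the LPS and PBS mice either, but the column names count each arm from 1 to 4. With that number as a replicate block, chosen after seeing the data, 6 members were called (main 6). Same-numbered mice did not deviate together (r from -0.197 to 0.214 over 9012 genes, and 1 of 4 LPS mice correlated best with its own number), so the numbers were not taken as pairs. Of 733 recomputed values of 79 named member changes, 709 kept their direction and call, 24 kept their direction and lost the call and 0 changed direction. At a minimum of 2-fold the members called fell from 20 to 13 (LPS_hi at 4 h), 18 to 11 (with norepinephrine), 15 to 8 (LPS_hi at 24 h), 10 to 6 (Poly(I:C)), 11 to 6 (IFNg), 12 to 4 (IFNb), 6 to 1 (rapamycin), 17 to 9 (LPS over time and dose) and 1 to 0 (age). Without the plate term they were 29 in place of 50 (combinations against LPS or P3C alone), 2 in place of 0 (IL4), 1 in place of 0 (PA at 24 h) and 2 in place of 5 (LPS_lo + rapamycin). With a pseudocount of 0.1 they were 32 for the combinations and 2 for LPS_lo + rapamycin. With a pseudocount of 5 they were 1 for IL4, 3 for the fatty acid pairs (main 1) and 0 for age. The fatty acid pairs gave 3 without the filter, 0 after rescaling and 2 without shallow cultures. With adjustment over all comparisons PA at 24 h gave 5 and rapamycin 13, and with well position as a term, chosen after seeing the data, PA gave 1. TNFa + P3C gave 13 without shallow cultures (main 22). Age gave 0 without the series term, 0 in the first series alone, 2 in the second alone and 5 with no minimum fold. Leaving out each mouse gave 5 to 7 members called with LPS (main 6). Leaving out each of the 5 cultures with LPS_lo and the IL4 mix, added after seeing the data, gave 6 to 8 (main 9), and each of the 5 with ATP at 4 h gave 2 to 4 (main 4). The other treated groups whose comparisons were recomputed one by one hold 6 or more cultures, and none was left out in turn. The cause of these differences was not tested. Depth limits the genes of a few CPM, such as Trib3 and Nupr1 in untreated cultures.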

Other observations

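IL4 alone at 72 h (3 cultures) had the second highest chaperone median of the 95 conditions, 1.05 on the log2 scale, after GMCSF, with a stress output median of 0.45. IL13 alone at 72 h had a chaperone median of 0.81 and a stress output median of -0.42. Valproic acid at 24 h had the lowest stress output median, -1.62, with a chaperone median of 0.30.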
